A study of Homo sapiens with 24 samples.

Results

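The hypoxia response and glycolysis genes examined here are 42 genes taken by symbol from textbook knowledge: 17 of the hypoxia response and 25 of glucose metabolism. Of the 42, 41 were tested for differential expression among 12327 genes that reached 5 CPM (CAGE tags scaled to 1000000 per library) in at least 1 library, out of 43037 genes in the table, and LDHB was the 1 that did not reach it. The libraries were made by cap analysis of gene expression (CAGE), which counts the capped 5′ ends of transcripts, so that CPM do not scale with transcript length. Levels set side by side between genes can still differ with GC content or with how tags of overlapping genes were assigned. The study compared a “WWOX” variant with a “Vec” variant of 4 cell lines from human glioblastoma (DBTRG-05MG, U251MG, T98G, and U87MG), with 3 libraries per variant described as biological replicates, 24 in all. “Vec” cells carried the Puro-Blank lentivirus, and “WWOX” cells carried a lentivirus with WWOX, a gene for an oxidoreductase with WW domains, under the CMV promoter (pLenti-GIII-CMV-GFP-2A-Puro). The methods of the published study instead name the lentiviral system of the “WWOX” cells as GIPZ. Both variants were selected with puromycin. Whether the 3 libraries of a variant came from separate transductions is not given in the sources used here. A difference between variants therefore cannot be told apart from one between transduced and selected populations. T98G was grown in MEM, DBTRG-05MG in RPMI-1640, and U87MG and U251MG in EMEM, so that line and medium cannot be told apart wherever the medium differs. No low-oxygen treatment is described in the sources used here, and all values below therefore belong to ordinary culture.

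Cells read oxygen through HIF, a transcription factor whose alpha subunits (HIF1A and EPAS1) are hydroxylated by EGLN enzymes in the presence of oxygen and are then removed by way of VHL. When oxygen falls, the alpha subunits persist, pair with ARNT, and bind a short core sequence, ACGTG or GCGTG, near genes for angiogenesis, pH control, mitophagy, and glucose use. Glioblastoma is a tumor known for hypoxic, necrotic areas and for converting much of its glucose to lactate. HIF is controlled mainly at the protein level, and transcript starts of HIF1A or EPAS1 do not report its activity.

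The 24 libraries held 10756072 to 16953689 tags (median 14584829), and 3 tags, taken as the floor of detection, corresponded to 0.177 to 0.279 CPM (counting error only). The glioma and mesenchymal marker CD44 was present in all groups, and GFAP, the astrocyte filament gene, had a mean of 2302 CPM in U251MG and of 2.45 to 5.23 CPM in the other lines. Other glioma markers were absent or low in some lines, with mean SOX2 at 0.0636 CPM in U87MG and 0.298 CPM in T98G, NES at 0.151 CPM in T98G, S100B at 0.284 CPM in U87MG and 0.2198 CPM in T98G, and OLIG2 at 2.42 CPM or less in every line. Of 3 neuron markers, RBFOX3 reached at most 0.203 CPM in any library, while SYT1 reached 107.7 CPM. SNAP25 had means of 20.7 CPM in U87MG, 11.8 CPM in DBTRG-05MG, 3.63 CPM in T98G, and 1.26 CPM in U251MG. The 3 summed to 5.01 to 36.6 CPM in “Vec” and 12.5 to 108.9 CPM in “WWOX” of U251MG. In U87MG the sums were 15.8 to 33.9 and 18.7 to 29.6 CPM, and in DBTRG-05MG 25.3 to 32.4 and 26.7 to 46.2 CPM. T98G had 2.57 to 10.1 and 2.91 to 4.16 CPM. Leukocyte markers summed to at most 0.351 CPM. WWOX itself was counted at 40.1, 33.9, and 39.8 CPM in “Vec” and 65.96, 61.3, and 60.98 CPM in “WWOX” of U87MG (replicates 1, 2, and 3, the order used throughout). The corresponding values were 38.6, 57.2, and 34.2 and 45.1, 61.8, and 59.95 CPM in T98G, 31.4, 36.8, and 32.1 and 56.7, 17.4, and 38.01 CPM in U251MG, and 20.4, 22.2, and 21.3 and 31.97, 28.2, and 27.96 CPM in DBTRG-05MG. The “WWOX” libraries lay above all “Vec” libraries in U87MG (log2FC 0.66, adjusted p = 0.135 from limma) and in DBTRG-05MG (log2FC 0.39, adjusted p = 0.77), and the groups overlapped in T98G and U251MG. The table has 1 value per gene and does not separate transcripts that start in the vector, so these counts do not measure the transgene.

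The promoters of the genes that the results turn on are shown first, because the HIF core is a short sequence that can be read directly. Of the 42 genes, 37 had a promoter in RefSeq (GRCh38.p14, most upstream start), and the motif ACGTG or GCGTG, searched on both strands in the 250 bases before the start, was present in 25 of these (67.6%), against 57.4% of the 9744 tested genes with a promoter and 43.1% of all 27305 promoters. Because CACGTG holds the motif on both strands, it counts as 2 overlapping matches. It occurred in 5 of the 37 promoters and in 8.86% of the promoters of tested genes. The median GC content of the windows was 69.6% for the 37 and 65.2% for tested genes. A match describes letters only and is not evidence that HIF binds there.

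Each line below gives the stretch before the start that lies in no exon annotated on either strand (GENCODE 44), 5′ to 3′ on the gene's strand, with the matches in capitals. The stretches are LDHA at chr11:18394313-18394559 (plus strand, 5 matches), ALDOC at chr17:28576949-28577145 (minus strand, 3 matches), PGK1 at chrX:78103998-78104247 (plus strand, 3 matches), BNIP3 at chr10:131981968-131982173 (minus strand, 6 matches), ADM at chr11:10304878-10305072 (plus strand, 1 match), CA12 at chr15:63381847-63382096 (minus strand, 1 match), SLC16A3 at chr17:82228185-82228396 (plus strand, 0 matches), and EGLN3 at chr14:33951082-33951324 (minus strand, 0 matches). LDHA, ALDOC, and PGK1 were chosen as glycolytic genes with several matches, BNIP3 as the member with the most, ADM and CA12 for their values in U251MG, and SLC16A3 and EGLN3 for their log2FC between variants, with no match in this stretch. Longer gene models of SLC16A3, EGLN3, and PGK1 start upstream of these windows, at 82217934, 34462774, and 77910739, and their promoters are not shown.
LDHA: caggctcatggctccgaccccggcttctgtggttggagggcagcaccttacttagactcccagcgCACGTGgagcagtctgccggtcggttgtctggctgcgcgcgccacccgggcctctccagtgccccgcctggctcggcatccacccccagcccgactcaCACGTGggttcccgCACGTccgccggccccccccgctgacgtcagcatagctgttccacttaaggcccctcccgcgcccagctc
ALDOC: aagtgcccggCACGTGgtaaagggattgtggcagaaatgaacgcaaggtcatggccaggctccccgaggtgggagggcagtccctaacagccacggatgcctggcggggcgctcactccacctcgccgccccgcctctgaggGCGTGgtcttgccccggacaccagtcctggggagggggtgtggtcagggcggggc
PGK1: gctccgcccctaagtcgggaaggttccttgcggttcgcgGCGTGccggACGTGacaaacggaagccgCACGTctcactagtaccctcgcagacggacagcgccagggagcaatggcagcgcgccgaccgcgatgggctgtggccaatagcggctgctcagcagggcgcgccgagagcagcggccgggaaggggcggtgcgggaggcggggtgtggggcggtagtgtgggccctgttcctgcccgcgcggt
BNIP3: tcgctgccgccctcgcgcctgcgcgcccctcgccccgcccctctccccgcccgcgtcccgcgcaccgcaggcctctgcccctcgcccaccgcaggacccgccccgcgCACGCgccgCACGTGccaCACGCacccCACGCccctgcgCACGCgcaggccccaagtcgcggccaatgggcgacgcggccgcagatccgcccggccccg
ADM: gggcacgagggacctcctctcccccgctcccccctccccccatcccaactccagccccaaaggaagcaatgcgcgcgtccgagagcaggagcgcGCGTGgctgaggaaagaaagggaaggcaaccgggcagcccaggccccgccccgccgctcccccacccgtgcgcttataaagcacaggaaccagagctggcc
CA12: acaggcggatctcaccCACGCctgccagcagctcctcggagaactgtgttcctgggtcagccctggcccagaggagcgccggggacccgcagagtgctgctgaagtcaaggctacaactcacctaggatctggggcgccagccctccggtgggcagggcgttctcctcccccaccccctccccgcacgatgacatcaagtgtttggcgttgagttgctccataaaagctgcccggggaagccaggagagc
SLC16A3: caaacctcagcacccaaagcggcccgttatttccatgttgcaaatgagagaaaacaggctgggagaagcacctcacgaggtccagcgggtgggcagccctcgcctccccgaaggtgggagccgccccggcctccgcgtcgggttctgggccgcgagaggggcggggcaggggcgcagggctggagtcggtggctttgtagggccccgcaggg
EGLN3: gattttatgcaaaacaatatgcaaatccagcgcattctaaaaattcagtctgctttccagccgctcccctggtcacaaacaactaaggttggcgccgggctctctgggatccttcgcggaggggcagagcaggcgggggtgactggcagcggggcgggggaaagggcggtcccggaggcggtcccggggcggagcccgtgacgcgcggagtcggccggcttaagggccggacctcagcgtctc

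The 42 genes together gave 2.802% to 3.902% of all tags in the 8 groups (group means). The first question was how the lines differed without added WWOX. Among the “Vec” libraries, 27 of the 41 tested genes differed among the 4 lines (limma, moderated F, adjusted p under 0.05), a share close to that over all tested genes, 66.9%. Between pairs of lines, 18 members differed for U87MG and T98G, where 39.8% of all genes did, 14 for U87MG and U251MG (38.6% of all genes), and 15 for U87MG and DBTRG-05MG (44.1%). For T98G and U251MG the count was 17 (32.4% of all genes), for T98G and DBTRG-05MG 10 (41.2%), and for U251MG and DBTRG-05MG 15 (31.6%). As shares of the 41 members these counts ran from 24.4% to 43.9%. In bulk libraries such as these, fewer cells expressing a gene and less RNA per cell cannot be told apart.

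LDHA, the lactate dehydrogenase subunit that favors lactate formation, had the widest range of any member. Its “Vec” libraries held 1277, 2716, and 3375 CPM in U87MG, 3074, 1184, and 2202 CPM in DBTRG-05MG, and 622, 1579, and 662 CPM in T98G. In U251MG they held 7.38, 20.1, and 12.7 CPM. U251MG was thus far below every library of the other lines, 198-fold below U87MG in the limma fit (log2 difference 7.63, standard error 0.466, adjusted p = 6.29e-12). U87MG and DBTRG-05MG did not differ beyond their spread (adjusted p = 0.511), and neither did DBTRG-05MG and T98G (adjusted p = 0.0926). In such statements, here and below, the spread is the limma estimate for the gene, shared by all 8 groups, not that of the lines compared. The 19 other tested genes within 2 Mb of LDHA had a median log2 difference of −0.29 for U251MG minus U87MG, −0.27 for U251MG minus T98G, and −0.86 for U251MG minus DBTRG-05MG, the last with 17 of 19 lower in U251MG. In the “WWOX” variants LDHA was counted at 4.32, 4.86, and 13.9 CPM in U251MG, 1445, 1191, and 1430.5 CPM in U87MG, 640.0, 1375, and 1562 CPM in T98G, and 1523, 2457, and 3212 CPM in DBTRG-05MG, which left the separation of U251MG in place.

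LDHB, the other main lactate dehydrogenase subunit, was close to the floor in all lines. It was counted at 0.7101, 0.84999, and 0.842 CPM in “Vec” and 1.28, 0.747, and 0.254 CPM in “WWOX” of U87MG, and at 0.984, 1.88, and 0.701 CPM in “Vec” and 1.21, 1.11, and 1.91 CPM in “WWOX” of T98G. The libraries of the other lines held 0.405, 0.398, and 1.07 CPM in “Vec” and 0.137, 0.572, and 0.338 CPM in “WWOX” of U251MG, and 0.786, 1.03, and 1.25 CPM in “Vec” and 1.95, 1.04, and 1.58 CPM in “WWOX” of DBTRG-05MG. LDHC, LDHAL6A, and LDHAL6B reached at most 0.129 CPM in any library. LDHA and LDHB each overlap another annotated gene on the same strand, ENSG00000256006 for LDHA and ENSG00000285854 for LDHB, neither of which was analysed here. How tags shared by overlapping genes were assigned is not given in the sources used here, and the part of this in the low values was not tested.

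The HIF alpha subunits differed in their order over the lines. HIF1A was counted at 361, 248, and 436 CPM in “Vec” of U251MG, 92.2, 79.2, and 117 CPM in U87MG, 87.5, 96.8, and 142 CPM in DBTRG-05MG, and 56.03, 145, and 31.8 CPM in T98G. U251MG stood above the next line (adjusted p = 0.00351 from limma), and the other 3 lines did not differ from their neighbors in this order beyond their spread. EPAS1, the alpha subunit of HIF-2, held 156, 451, and 118 CPM in T98G, 235, 175, and 179 CPM in U87MG, 172, 154, and 143 CPM in U251MG, and 35.2, 27.6, and 38.1 CPM in DBTRG-05MG. Here DBTRG-05MG stood below the next line (adjusted p = 0.000143), and neighbors among the other 3 lines did not differ beyond their spread. EPAS1 made up 76.03% of the tags of both subunits in T98G and 67.02% in U87MG, but 31.7% in U251MG and 24.005% in DBTRG-05MG.

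Among the oxygenases, EGLN3, a HIF hydroxylase that is itself induced by HIF, was nearly absent from U87MG. Its “Vec” libraries held 0.284, 1.005, and 0.421 CPM in U87MG, against 25.5, 55.1, and 23.98 CPM in U251MG, 23.5, 12.2, and 23.3 CPM in T98G, and 31.3, 3.48, and 14.2 CPM in DBTRG-05MG. U87MG and U251MG shared a medium and differed 29.5-fold in the fit on log2(CPM + 0.5) (adjusted p = 8.94e-07 from limma), and neighbors among the other 3 lines did not differ beyond their spread. EGLN1, the main HIF hydroxylase, had “Vec” group means of 24.3 to 40.1 CPM, and the test among the lines gave adjusted p = 0.442.

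The carbonic anhydrases, which help to control pH at the cell surface, also separated the lines. CA12 was counted at 136, 223, and 133 CPM in “Vec” of U87MG, 57.9, 7.598, and 64.9 CPM in DBTRG-05MG, 45.3, 30.5, and 31.4 CPM in T98G, and 1.297, 1.75, and 0.469 CPM in U251MG. U251MG lay 113-fold below U87MG (adjusted p = 5.27e-09 from limma) and below both DBTRG-05MG and T98G, which did not differ from each other beyond their spread (adjusted p = 0.649). CA9, a standard marker of hypoxic tumor cells, was low throughout, with 0.568, 5.795, and 2.31 CPM in “Vec” and 1.35, 1.83, and 0.678 CPM in “WWOX” of U87MG, 5.84, 1.35, and 0.871 CPM in “Vec” and 4.32, 19.7, and 2.64 CPM in “WWOX” of U251MG, and 2.42, 0, and 0.527 CPM in “Vec” and 0.295, 3.76, and 2.33 CPM in “WWOX” of DBTRG-05MG. In T98G it stayed at or below the floor of 3 tags in all 6 libraries, the highest of which held 0.141 CPM. Transcript starts of CA9 therefore gave little signal in these cultures.

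VEGFA, the main angiogenic growth factor, was abundant in every line. It was counted at 943, 1552, and 1091 CPM in “Vec” and 1504, 709, and 855 CPM in “WWOX” of U87MG, and at 572, 469, and 534 CPM in “Vec” and 645, 609, and 887 CPM in “WWOX” of T98G. Values reached furthest in U251MG, with 1677, 838, and 1321 CPM in “Vec” and 5957, 1634, and 1953 CPM in “WWOX” of U251MG, and 705, 628, and 393 CPM in “Vec” and 907, 1050.5, and 1576 CPM in “WWOX” of DBTRG-05MG. LOX, which cross-links collagen, ranged from a “Vec” mean of 80.7 CPM in U87MG to 6.36 CPM in U251MG, a difference of 13.4-fold. ADM, the vasodilator peptide adrenomedullin, was highest in T98G (593 CPM) and lowest in DBTRG-05MG (68.2 CPM). NDRG1, a stress-responsive gene that had the widest range of the cell stress group, held 190.4, 109, and 169 CPM in “Vec” of T98G, 113, 74.3, and 40.5 CPM in U251MG, 46.01, 54.4, and 49.7 CPM in U87MG, and 55.1, 21.96, and 45.6 CPM in DBTRG-05MG (adjusted p = 0.00505 among the lines).

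SLC2A1 (GLUT1) and SLC2A3 (GLUT3) are glucose transporters of the plasma membrane. SLC2A1 was counted at 1384, 1554, and 1387 CPM in “Vec” and 1025, 742, and 1053 CPM in “WWOX” of T98G, and at 728, 489, and 727 CPM in “Vec” and 472, 751, and 840.4 CPM in “WWOX” of DBTRG-05MG. The remaining groups held 433, 590.0, and 325 CPM in “Vec” and 593, 722, and 712 CPM in “WWOX” of U251MG, and 219, 351, and 324 CPM in “Vec” and 409, 249.8, and 339 CPM in “WWOX” of U87MG. The “Vec” difference between T98G and U87MG was 4.903-fold (adjusted p = 1.10e-06 from limma). T98G stood above the next line (adjusted p = 0.000599), and neighbors among the other 3 did not differ beyond their spread. SLC2A3 was the lesser transporter in every line, with 14.999% of the “Vec” tags of both in U87MG, 12.9% in DBTRG-05MG, 4.13% in U251MG, and 1.97% in T98G.

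Isoenzyme use at several glycolytic steps was line-specific. HK2, the hexokinase associated with tumors, was counted at 87.1, 94.1, and 76.7 CPM in “Vec” and 115, 52.8, and 108 CPM in “WWOX” of U87MG, and at 33.3, 44.3, and 28.7 CPM in “Vec” and 48.3, 45.1, and 76.9 CPM in “WWOX” of T98G. The remaining lines gave 41.3, 25.6, and 43.4 CPM in “Vec” and 42.4, 67.4, and 68.7 CPM in “WWOX” of DBTRG-05MG, and 12.4, 9.79, and 11.1 CPM in “Vec” and 33.9, 14.3, and 14.5 CPM in “WWOX” of U251MG. It made up 3.65% of the tags of HK1 and HK2 in “Vec” of U251MG, against 19.5%, 19.5%, and 26.2% in U87MG, DBTRG-05MG, and T98G. ALDOC, the brain-type aldolase, held 31.9, 80.9, and 42.8 CPM in “Vec” of U87MG and 59.2, 9.14, and 31.5 CPM in DBTRG-05MG, but 0.422, 0.251, and 0.0778 CPM in T98G and 0.162, 0.318, and 0.201 CPM in U251MG, at about the level of the floor. U87MG and DBTRG-05MG did not differ beyond their spread (adjusted p = 0.146). ALDOA, the ubiquitous aldolase, was present in all lines (“Vec” means 2429 to 4781 CPM). PFKFB3, which makes the phosphofructokinase activator fructose 2,6-bisphosphate, was highest in U251MG (245 CPM) and 5.11-fold lower in T98G. U251MG, the line lowest in LDHA and HK2, was thus also the line highest in PFKFB3 and HIF1A.

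The pyruvate dehydrogenase kinases, which inhibit pyruvate dehydrogenase in the mitochondria, did not differ among the lines beyond their spread. PDK1 was counted at 2.41, 2.01, and 1.89 CPM in “Vec” and 3.18, 1.63, and 2.71 CPM in “WWOX” of U87MG, and at 1.12, 1.94, and 1.01 CPM in “Vec” and 0.837, 1.93, and 1.52 CPM in “WWOX” of T98G. It was counted at 1.78, 2.31, and 2.54 CPM in “Vec” and 2.33, 0.9297, and 1.69 CPM in “WWOX” of U251MG, and 2.36, 2.25, and 1.91 CPM in “Vec” and 5.01, 4.601, and 1.85 CPM in “WWOX” of DBTRG-05MG. The highest library was “WWOX” replicate 1 of DBTRG-05MG, and the test among the “Vec” groups gave adjusted p = 0.337 (limma). PDK3, with the wider range of the pair, held 12.3, 21.6, and 20.9 CPM in “Vec” of U87MG, 25.1, 26.002, and 22.5 CPM in T98G, 31.3, 59.7, and 29.4 CPM in U251MG, and 39.2, 27.9, and 53.4 CPM in DBTRG-05MG (adjusted p = 0.114).

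Several core glycolytic enzymes were abundant. “Vec” group means were 9386 to 14324 CPM for GAPDH, 3936 to 8914 CPM for ENO1 (enolase), 2151 to 3895 CPM for PKM (pyruvate kinase), and 958 to 2640.0 CPM for PGK1 (phosphoglycerate kinase, whose promoter stretch holds 3 matches). Among the phosphofructokinases, the committed step of glycolysis, PFKP gave 52.3% of tags in “Vec” of U87MG and 24.1% in T98G, where PFKL gave 65.4%. PFKM was the minor form everywhere, with 6.46% in U251MG and 18.1% in DBTRG-05MG. HK1 (adjusted p = 1.66e-05 from limma), PFKP (0.00273), PFKFB4 (0.000959), ENO2 (0.00709), and P4HA1 (0.000956) differed among the lines. GPI (0.11), PFKL (0.24), TPI1 (0.105), and PGAM1 (0.0781) did not pass. BNIP3, the mitophagy receptor whose promoter stretch holds the most matches, had “Vec” means of 296 to 489 CPM and did not pass either (adjusted p = 0.393).

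**Figure D1:**
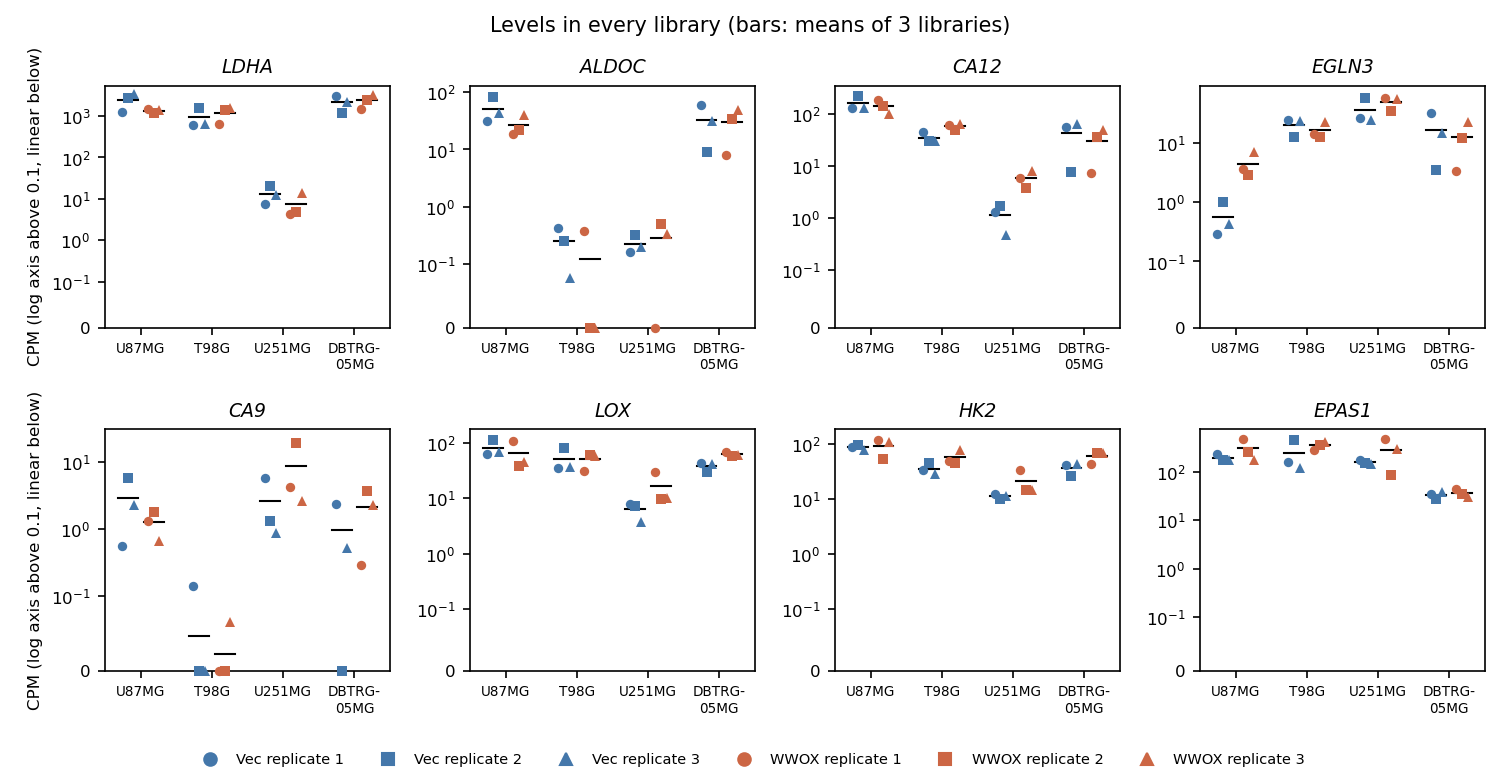
CPM of 8 members in all 24 libraries by cell line, with blue points for “Vec”, orange points for “WWOX”, shapes for replicates 1 to 3, and bars for the means of 3 libraries; the axis is logarithmic above 0.1 CPM and linear below. LDHA sits between 4.32 and 20.1 CPM in the 6 libraries of U251MG and at 622 CPM or more in every other library, and EGLN3 is lowest in U87MG.

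The next question was what differed between the variants within each line. Between “WWOX” and “Vec”, 1 of the 41 genes passed the test (limma, adjusted p under 0.05), SLC16A3 in T98G. No member passed in U87MG, U251MG, or DBTRG-05MG, for the mean of the 4 lines, for DBTRG-05MG set against the average of the rest, or for a difference of log2FC among lines. Over all tested genes the shares called were 1.02% in DBTRG-05MG, 3.2% in U87MG, 1.14% in T98G, 0.316% in U251MG, 1.8% for the mean, 0.982% for DBTRG-05MG against the rest, and 3.48% for differences among lines. With 41 genes, the largest of these shares corresponds to between 1 and 2 calls, so counts of 0 and 1 do not set the members apart from other genes. At an unadjusted p under 0.05, the members with a difference numbered 11 in U251MG (11.5% of all genes), 5 in U87MG (11.5%), 2 in T98G (11.5%), and 1 in DBTRG-05MG (7.63%). The equivalent count was 7 for the mean of the lines (15.5% of all genes), 1 for DBTRG-05MG against the rest (7.07%), and 8 for differences among lines (14.5%). Other tools called other members in places: edgeR called EGLN3 in U87MG, none in T98G, U251MG, DBTRG-05MG, the mean, or the differences among lines, while DESeq2 called EGLN3 in U87MG, SLC16A3 in T98G, ADM, CA12, and SLC2A3 in U251MG, HK2 and SLC2A3 for the mean, and EGLN3 and SLC16A3 for differences among lines, with none in DBTRG-05MG. Neither tool called a member for DBTRG-05MG against the rest.

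**Figure D2:**
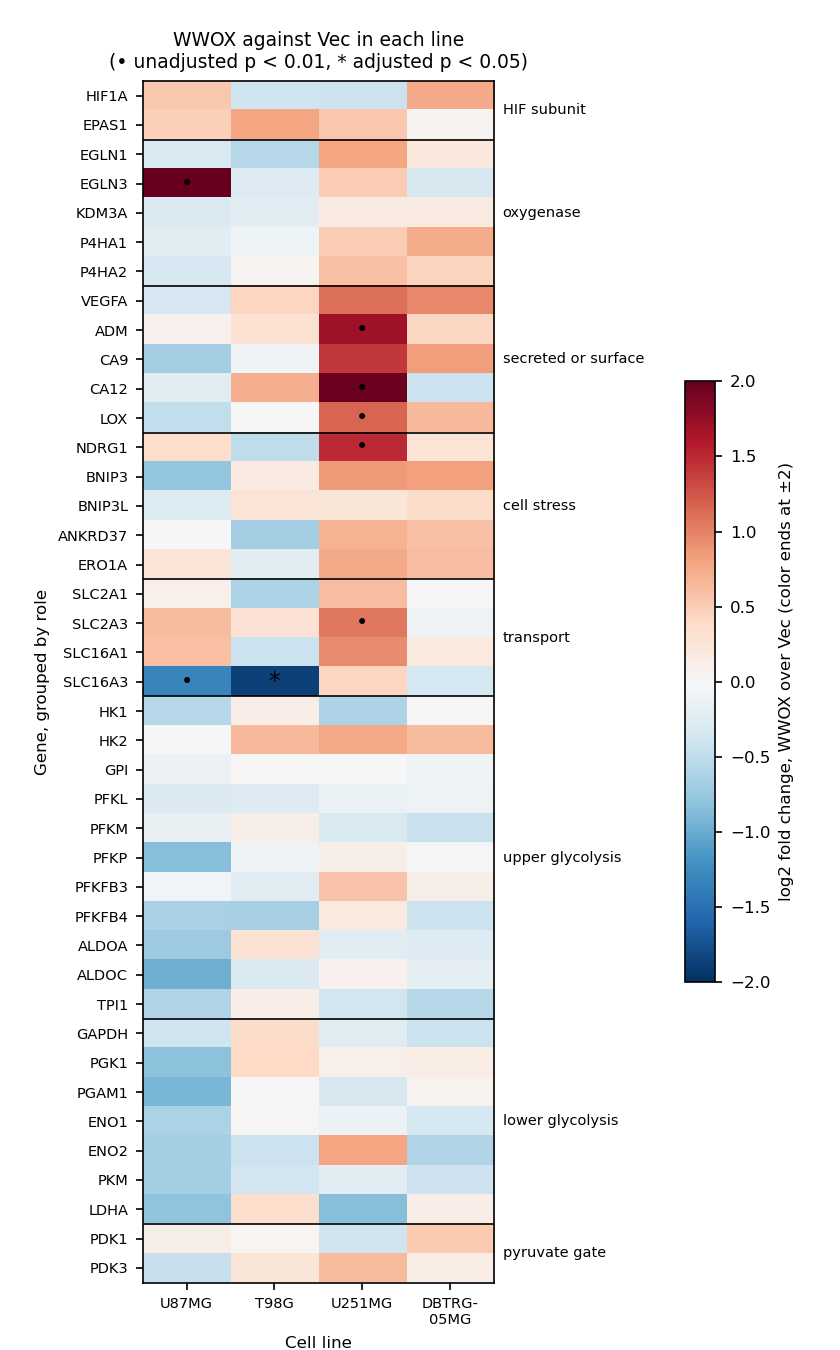
Log2FC of “WWOX” over “Vec” for the 41 tested members, rows grouped by role and columns by cell line, with red for higher and blue for lower in “WWOX” and the color scale ending at ±2. The asterisk marks the 1 call with adjusted p under 0.05, SLC16A3 in T98G (−1.86), and dots mark unadjusted p under 0.01, which 5 members had in U251MG.

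SLC16A3 (MCT4, chromosome 17, 82217934 to 82261129, plus strand, GRCh38) exports the lactate that glycolytic cells produce. In T98G it was counted at 319, 278, and 323 CPM in “Vec” and 104, 79.7, and 71.5 CPM in “WWOX”. All “WWOX” libraries lay below all “Vec” libraries, and the mean fell from 306 ± 25.2 CPM to 85.1 ± 16.9 CPM (SD, n = 3), a log2FC of −1.86 ± 0.441 (SE, limma adjusted p = 0.0384). In U87MG the libraries held 181, 385, and 334 CPM in “Vec” and 99.1, 93.9, and 183 CPM in “WWOX”, which did not overlap after TMM scaling although the deposited values did, with a log2FC of −1.32 ± 0.441 (SE, limma adjusted p = 0.134). In U251MG they held 434, 657, and 354 CPM in “Vec” and 385, 1031, and 636 CPM in “WWOX”, and in DBTRG-05MG 626, 263, and 336 CPM in “Vec” and 202, 387, and 395 CPM in “WWOX”, and in both lines the variants overlapped. The log2FC were 0.43 in U251MG and −0.35 in DBTRG-05MG, and the test of a difference among the 4 lines gave adjusted p = 0.115.

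The call on the SLC16A3 log2FC in T98G passed under 8 of 12 other settings and in 16 of 24 fits that left out 1 library, and among the settings it did not pass with edgeR (adjusted p = 0.0544), without genes being filtered (0.0534), with a separate model per line (0.0639), or with the replicate number as a block (0.0835). It was lost without any 1 of the T98G libraries other than “Vec” replicate 2, without U87MG “Vec” replicate 3 or “WWOX” replicate 2, and without U251MG “Vec” replicate 1, with adjusted p between 0.0506 and 0.225, the highest without T98G “WWOX” replicate 3. Genes around it also had lower values: 53 of the 55 other tested genes within 2 Mb had a negative log2FC in T98G, with a median of −0.56 against −0.05 over all genes, and in U87MG 37 of 55 did, with a median of −0.11. The 734 tested genes of chromosome 17 lay 0.31 below the median of all genes in T98G. CSNK1D, which overlaps SLC16A3 on the opposite strand, had a log2FC of −0.59 in T98G. The log2FC of SLC16A3 was larger in size than these shifts, and their part in it was not tested.

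**Figure D3:**
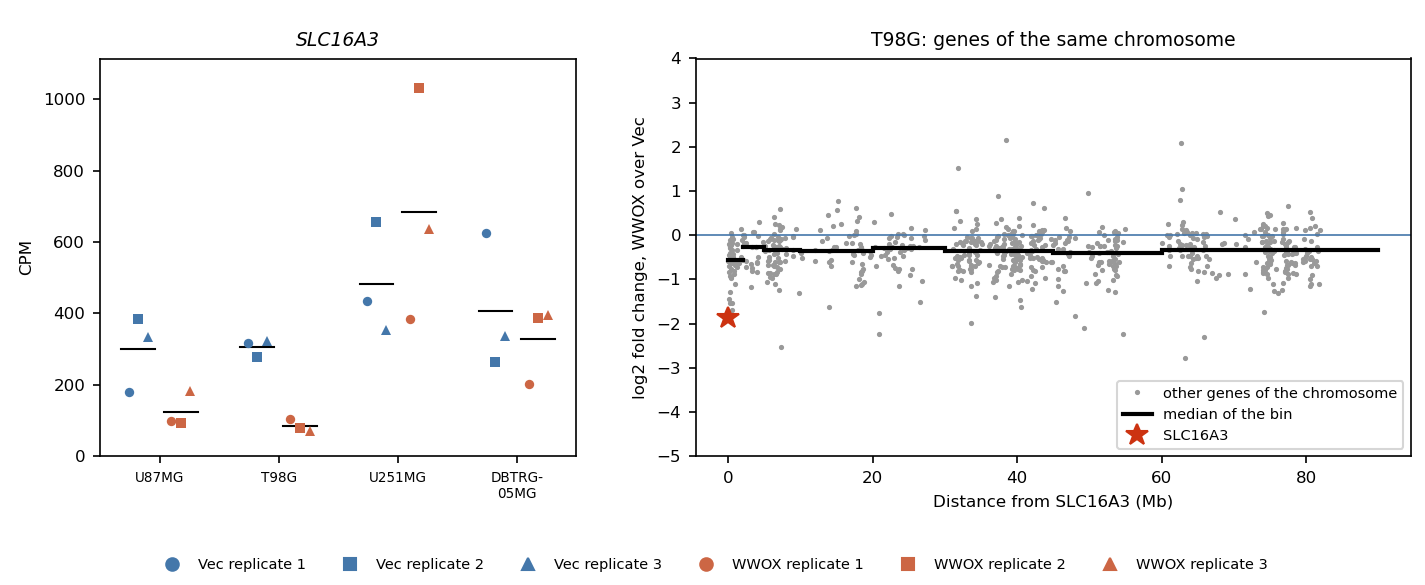
Left, CPM of SLC16A3 in the 24 libraries, with blue for “Vec”, orange for “WWOX”, shapes for replicates 1 to 3, and bars for means; right, log2FC in T98G of the tested genes of chromosome 17 against their distance from SLC16A3 in Mb, with black lines for the median of each distance bin. The 3 “WWOX” libraries of T98G lie below all 3 “Vec” libraries, and every bin median is below 0, while SLC16A3 (star) lies at −1.86.

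In U87MG, EGLN3 lay higher in every “WWOX” library without passing the test in limma: 0.284, 1.005, and 0.421 CPM in “Vec” and 3.55, 2.85, and 6.86 CPM in “WWOX”. The log2FC of 2.16 ± 0.616 (SE, limma adjusted p = 0.0586) was the largest in size of any member in any line, and the 13 other tested genes within 2 Mb (EGLN3 lies on chromosome 14, 33924227 to 34462774, minus strand) had a median log2FC of 0.12. Even so, the highest “WWOX” library of U87MG stayed below the “Vec” means of the other 3 lines. Single libraries did overlap, as EGLN3 in DBTRG-05MG was at 3.48 CPM in “Vec” replicate 2 and 3.30 CPM in “WWOX” replicate 1. Libraries are called entirely above or below here where the log2 values after TMM scaling of the 3 “WWOX” libraries do not overlap those of the 3 “Vec” libraries. EGLN3 was the 1 member with all “WWOX” libraries above all “Vec” libraries in U87MG (7.76% of all genes), and 7 members lay apart in the other direction (9.69% of all genes).

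Those 7 were SLC16A3 and the glycolytic enzymes HK1, PGK1, GAPDH, PGAM1, ENO1, and PKM. On the CPM as deposited PGAM1 overlapped, with 193 CPM in “Vec” replicate 1 and 201 CPM in “WWOX” replicate 3, as did SLC16A3. All 18 tested glycolytic enzymes had a negative log2FC in U87MG, from −0.98 to −0.04 with a median of −0.64, while the median of all genes was −0.00, and none of the 18 passed the test. The number negative was 16 of 18 on the CPM as deposited, 17 of 18 after correction for GC content and length, and 18 of 18 with median of ratios scaling. GAPDH, for instance, was counted at 11142, 10918, and 10843 CPM in “Vec” and 8458, 8755, and 8926 CPM in “WWOX”, with a log2FC of −0.39 ± 0.366 (SE, limma adjusted p = 0.874). This standard error rests on the spread over all 8 groups and not on U87MG alone. The SD of GAPDH was 155 CPM in “Vec” and 237 CPM in “WWOX” of U87MG, but 4379 and 3686 CPM in DBTRG-05MG. PGAM1 had a log2FC of −0.92 ± 0.354 (SE, limma adjusted p = 0.236). The enzymes were high or low together from library to library, and their median relative to the mean of all U87MG libraries was −0.00, 0.65, and 0.29 in “Vec” and −0.63, −0.40, and 0.09 in “WWOX”, so “WWOX” replicate 3 reached the level of “Vec” replicate 1. In the other lines the counts of negative log2FC were 7, 11, and 13 of 18 in T98G, U251MG, and DBTRG-05MG, with medians of 0.02, −0.12, and −0.14.

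In T98G, PDK3, CA12, VEGFA, and HK2 had “WWOX” libraries entirely above “Vec” (6.9% of all genes), and SLC2A1, SLC16A3, and ANKRD37 entirely below (9.26%). SLC2A1 had a log2FC of −0.63 ± 0.293 (SE, limma adjusted p = 0.408), HK2 a log2FC of 0.65 ± 0.321 (SE, limma adjusted p = 0.445). BNIP3 had a log2FC of 0.18 and PGK1 of 0.39. The median over the 41 members was 0.01, with 22 positive and 19 negative.

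In U251MG the hypoxia response genes, leaving aside the HIF subunits, had a positive log2FC in 15 of 15, from 0.17 to 1.97 with a median of 0.79, under each scaling tried, against a median of 0.00 over all genes. None of the 15 passed the test. Over all 41 members, 10 had a positive log2FC with an unadjusted p under 0.05 and 1, HK1, a negative one. Among all 12327 tested genes 737 had a positive and 686 a negative log2FC at this threshold. SLC2A3, CA12, ENO2, LOX, ADM, PFKFB3, and ERO1A had “WWOX” libraries entirely above “Vec” (5.41% of all genes), and no member lay entirely below (5.01%). ERO1A overlapped on the CPM as deposited, with 24.6 CPM in “Vec” replicate 1 and 20.3 CPM in “WWOX” replicate 2. On the same deposited values SLC2A1, ANKRD37, and HK2 also lay entirely above, and HK1 lay entirely below. When “WWOX” replicate 2 was left out, 4 members passed in U251MG (ADM, HK1, PDK3, and SLC2A3), and 4 passed for the mean of the lines (EPAS1, PKM, SLC16A3, and SLC2A3).

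ADM came closest to the threshold in U251MG. It was counted at 129, 77.9, and 56.2 CPM in “Vec” and 416, 204, and 235 CPM in “WWOX”, and the mean was 87.8 ± 37.5 CPM in “Vec” and 285 ± 115 CPM in “WWOX” (SD, n = 3), a log2FC of 1.69 ± 0.398 (SE, limma adjusted p = 0.0724). ADM carries 1 match to the HIF core in the promoter stretch printed above. The lowest “WWOX” library stood above the highest “Vec” library. The 28 other tested genes within 2 Mb (ADM lies on chromosome 11, 10305073 to 10307397, plus strand) had a median log2FC of 0.02. SLC2A3 held 23.5, 19.1, and 13.9 CPM in “Vec” and 52.7, 26.2, and 43.01 CPM in “WWOX” with a log2FC of 1.05 ± 0.2795 (SE, limma adjusted p = 0.121). CA12 held 1.297, 1.75, and 0.469 CPM in “Vec” and 6.04, 3.86, and 8.18 CPM in “WWOX” with a log2FC of 1.97 ± 0.621 (SE, limma adjusted p = 0.194), and its highest library remained near the lowest libraries of DBTRG-05MG. LOX held 7.95, 7.32, and 3.82 CPM in “Vec” and 30.3, 9.65, and 10.2 CPM in “WWOX” with a log2FC of 1.17 ± 0.406 (SE, limma adjusted p = 0.239). NDRG1 held 113, 74.3, and 40.5 CPM in “Vec” and 293, 244, and 111 CPM in “WWOX” with a log2FC of 1.49 ± 0.508 (SE, limma adjusted p = 0.227), and the variants overlapped slightly. VEGFA, whose values are given above, had a log2FC of 1.11 ± 0.406 (SE, limma adjusted p = 0.273), and “WWOX” replicate 1 alone was above all other libraries by a wide margin.

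The HIF subunits themselves did not separate the variants in U251MG. HIF1A was counted at 465, 102, and 339 CPM in “WWOX”, a log2FC of −0.44 ± 0.429 (SE, limma adjusted p = 0.764), and EPAS1 at 469, 84.5, and 300.4 CPM, a log2FC of 0.54 ± 0.405 (SE, limma adjusted p = 0.672). In “WWOX” of the other lines HIF1A held 245, 135, and 89.01 CPM in U87MG, 32.4, 58.1, and 60.1 CPM in T98G, and 223, 215, and 139.7 CPM in DBTRG-05MG. EPAS1 held 478, 259, and 179, 286, 358, and 421, and 44.002, 35.1, and 30.8 CPM in the same 3 lines. The largest log2FC of either subunit in any line was 0.79, of EPAS1 in T98G.

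The U251MG libraries were uneven. “WWOX” replicate 1 was the highest of its group for 11 of the 15 hypoxia response genes and the lowest for 15 of the 18 glycolytic enzymes, and “WWOX” replicate 2 was the highest for 16 of the 18. The same replicates differed in the slope of log2 values on the GC content of genes, −0.38 for replicate 1 and 0.56 for replicate 2 (log2 units per 10 percentage points of GC). After correction for GC content and gene length the median over the 15 genes was 0.86. Without “WWOX” replicate 1 it was 0.58, with 13 of 15 positive, and without replicate 2 it was 0.98. The median of the 18 glycolytic enzymes in U251MG was −0.12, with 7 positive, and its sign was not stable. It was 0.15 without “WWOX” replicate 1, with 13 positive, −0.50 without replicate 2, with 3 positive, 0.02 with edgeR, and 0.05 with DESeq2. The genes of chromosome 15, which carries CA12 and PKM, lay 0.23 above the median of all genes, and the part of this in the log2FC of CA12 was not tested. Of 3 endothelial markers fixed for checking the lines, PECAM1 and VWF were at 0.0496 CPM or less on average in U251MG, while CDH5 brought their sum to 2.01 to 3.89 CPM in “Vec” and 4.51 to 13.3 CPM in “WWOX”.

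**Figure D4:**
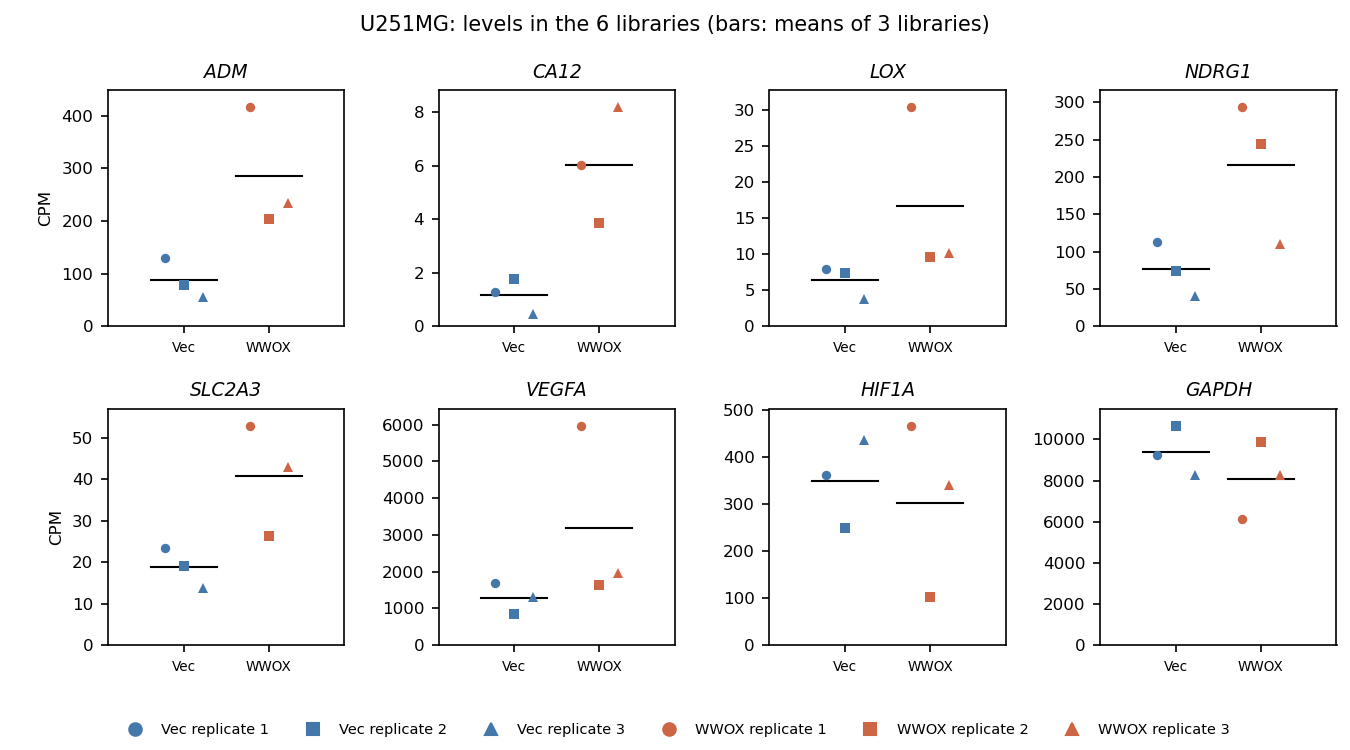
CPM of 8 members in the 6 libraries of U251MG, with blue for “Vec”, orange for “WWOX”, shapes for replicates 1 to 3, and bars for the means of 3 libraries. The “WWOX” points of ADM, CA12, LOX, and SLC2A3 all lie above the “Vec” points, those of HIF1A and GAPDH overlap them, and VEGFA reaches 5957 CPM in “WWOX” replicate 1 only.

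In DBTRG-05MG, P4HA2, HIF1A, BNIP3L, VEGFA, LOX, and P4HA1 had “WWOX” libraries entirely above “Vec” (9.41% of all genes), and no member lay entirely below (10.4%). HIF1A did so only after TMM scaling, as the deposited values were 142 CPM in “Vec” replicate 3 and 139.7 CPM in “WWOX” replicate 3. The prolyl hydroxylases P4HA1 and P4HA2 and the lysyl oxidase LOX act on collagen, and BNIP3L is a mitophagy receptor. VEGFA had a log2FC of 0.97 ± 0.406 (SE, limma adjusted p = 0.511), P4HA2 a log2FC of 0.45 ± 0.2804 (SE, limma adjusted p = 0.827), and HIF1A a log2FC of 0.75 ± 0.429 (SE, limma adjusted p = 0.763). BNIP3 had a log2FC of 0.82 with overlapping variants. Of the 15 hypoxia response genes 13 had a positive log2FC, with a median of 0.45. The same genes had 5 positive in U87MG, with a median of −0.28, and 7 in T98G, with a median of −0.07. The median in DBTRG-05MG moved between 0.26 without “Vec” replicate 2 and 0.84 without “WWOX” replicate 1. The tested genes of chromosome 10, which carries 6 members, lay 0.21 above the median of all genes in DBTRG-05MG, and those of chromosome 12, which carries 5, lay 0.20 below it.

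The members of DBTRG-05MG varied widely between libraries of the same variant. “Vec” replicate 1 was the highest and “Vec” replicate 2 the lowest of its group for 18 of 18 glycolytic enzymes, and “WWOX” replicate 3 was the highest and “WWOX” replicate 1 the lowest for 18 of 18. Over all genes the same ranks were taken by 30.5%, 35.3%, 37.7%, and 36.7%. The hypoxia response genes followed the same libraries, with “Vec” replicate 2 the lowest for 13 of 15 and “WWOX” replicate 3 the highest for 13 of 15. The median standard deviation of log2 values within a variant was 0.658 for the glycolytic enzymes and 0.2796 for all genes. In T98G, where the members were steadiest, it was 0.295 for the 41 members and 0.352 for all genes. Leaving out “WWOX” replicate 1 turned the median log2FC of the glycolytic enzymes in DBTRG-05MG from −0.14 to 0.29, and leaving out “Vec” replicate 1 turned it to 0.13. It was −0.54, with 17 of 18 negative, both without “Vec” replicate 2 and without “WWOX” replicate 3.

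**Figure D5:**
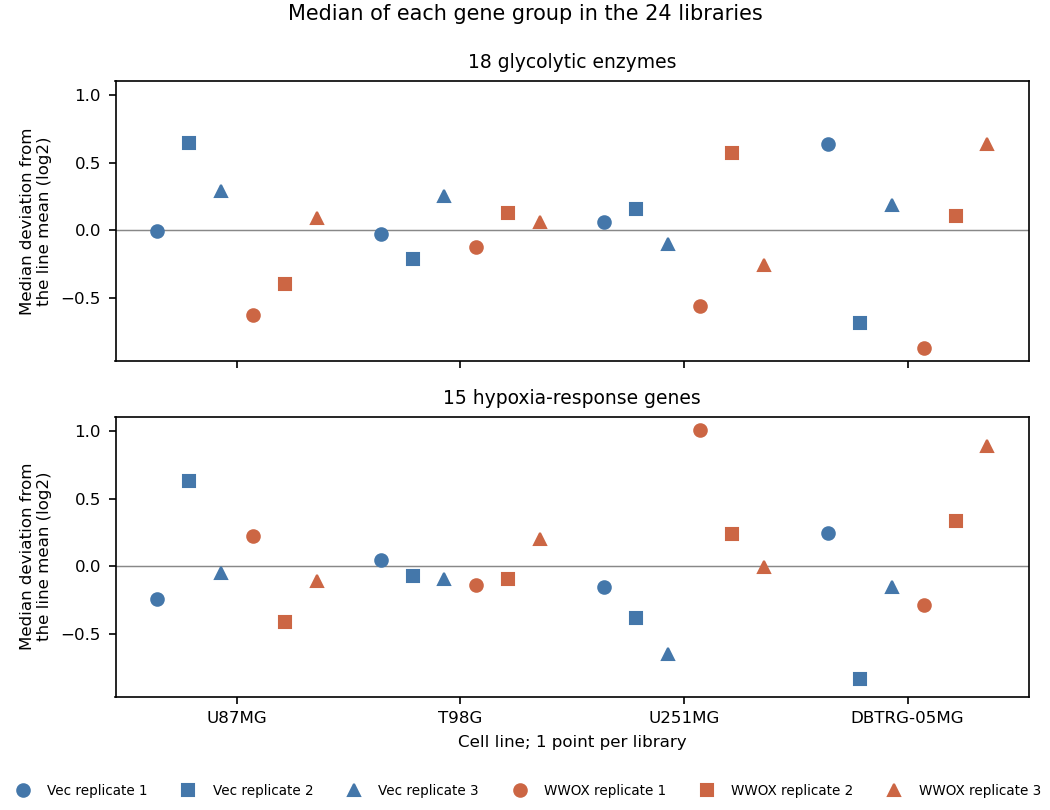
Median over the 18 glycolytic enzymes (top) and the 15 hypoxia response genes (bottom) of the log2 deviation of each library from the mean of its cell line, with 1 point per library, blue for “Vec” and orange for “WWOX”. In DBTRG-05MG the enzymes run from −0.69 to 0.64 within “Vec” and from −0.87 to 0.64 within “WWOX”, and in U251MG the “WWOX” points of the hypoxia response genes all lie above the “Vec” points.

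Averaged over the 4 lines, log2FC were small. SLC16A3 had the lowest adjusted p among the members for the mean, with a log2FC of −0.77 ± 0.221 (SE, limma adjusted p = 0.0797). SLC2A3 (0.47), ADM (0.62), HK2 (0.50), VEGFA (0.54), EPAS1 (0.46), and PKM (−0.42) were the other members with an unadjusted p under 0.05. HK2 took a larger mean share of the tags of HK1 and HK2 in “WWOX” than in “Vec” in all 4 lines, with “WWOX” means of 10.8% in U251MG (SD 8.72, n = 3, libraries from 5.27% to 20.8%), 26.4% in U87MG, 27.6% in DBTRG-05MG, and 33.6% in T98G. The libraries of the variants overlapped in U87MG (15.1% to 22.6% in “Vec”, 16.7% to 32.1% in “WWOX”). They also overlapped in T98G (22.9% to 31.6% and 28.5% to 39.4%), but not in U251MG and DBTRG-05MG. After TMM scaling, no member had libraries entirely apart in opposite directions in any pair of lines. On the CPM as deposited, SLC2A1 and ANKRD37 did, with “WWOX” lower in T98G and higher in U251MG. For SLC2A1 the gap in U251MG was narrow, from 590.0 CPM in “Vec” replicate 2 to 593 CPM in “WWOX” replicate 1.

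The wider pathway was read from 100 further genes, of which 84 were tested: 15 of the machinery that controls HIF, 35 other hypoxia targets, and 34 other genes of glucose metabolism. The calls described here between the variants of a line were 1 in T98G and 3 in DBTRG-05MG, and none passed in U251MG. Over all tested genes the shares called were 1.14% in T98G, 1.02% in DBTRG-05MG, and 0.316% in U251MG. RPE, a pentose phosphate epimerase, rose in T98G from 33.7 ± 17.7 CPM in “Vec” to 70.7 ± 12.2 CPM in “WWOX” (SD, n = 3), a log2FC of 1.16 (limma adjusted p = 0.0246). The call was lost on the CPM as deposited, with the replicate number as a block, with a separate model per line (adjusted p = 0.284), and without “Vec” replicate 1 or 3 or “WWOX” replicate 2 or 3 of T98G. TFRC, the transferrin receptor, rose in DBTRG-05MG from 35.5 ± 6.41 CPM in “Vec” to 117 ± 26.2 CPM in “WWOX” (SD, n = 3), a log2FC of 1.64 (limma adjusted p = 0.00777). It was lost with a separate model per line and without “Vec” replicate 1 or 3 or “WWOX” replicate 2 of DBTRG-05MG, with adjusted p up to 0.0662. SLC2A10 (GLUT10) rose in DBTRG-05MG from 2.17 ± 0.884 CPM in “Vec” to 12.96 ± 1.103 CPM in “WWOX” (SD, n = 3), a log2FC of 2.30 (limma adjusted p = 0.000717), and the call held in 24 of 24 fits that left out 1 library but not with a separate model per line (adjusted p = 0.0553). PFKFB2, which makes fructose 2,6-bisphosphate, rose in DBTRG-05MG from 3.09 ± 0.347 CPM in “Vec” to 9.59 ± 1.68 CPM in “WWOX” (SD, n = 3), a log2FC of 1.41 (limma adjusted p = 0.0475), and held in 6 of 24 such fits and under 6 of 12 other settings, with adjusted p up to 0.215 without “WWOX” replicate 2. For TFRC and SLC2A10 the log2FC in DBTRG-05MG also differed from that averaged over the remaining lines (adjusted p = 0.0284 and 0.00579). The 35 other hypoxia targets had 30 positive log2FC in U251MG with a median of 0.50 and 12 positive in U87MG with a median of −0.21. In T98G 15 were positive, with a median of −0.16, and in DBTRG-05MG 21, with a median of 0.19. The HIF machinery, which holds VHL and ARNT, had medians between 0.00 and 0.12 over the 4 lines, and none of its genes passed the test. Single genes moved either way, from −0.75 to 0.61 in T98G and from −0.49 to 0.94 in DBTRG-05MG. VHL had a log2FC of −0.75 in T98G (limma, unadjusted p = 0.00661), −0.47 in U87MG, −0.02 in U251MG, and 0.05 in DBTRG-05MG. For ARNT the log2FC were 0.32, −0.24, 0.31, and 0.14 in the same order.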

How the data were processed

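Capped 5′ transcript ends were sequenced by CAGE in 24 libraries of 4 glioblastoma lines. Per the labels and the study's methods, the authors aligned reads to hg38 with STAR, used SAMtools, and deposited 1 table of CPM per gene. The annotation release and the handling of strand in counting are not given in the sources used here. The deposited CPM were whole tag counts divided by the library total (100% of values whole within 0.01 tags once multiplied back), and depth was 10756072 to 16953689 tags. Each of the 24 single tables equaled its column of the joint table.

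Members (42 symbols) and the 3 lists of further pathway genes were chosen with earlier results of these data known. The 12327 genes reaching 5 CPM in any library were tested with limma 3.58.1 (trend) on log2(TMM-scaled CPM + 0.5) over 8 groups (16 residual degrees of freedom, Benjamini-Hochberg adjusted p under 0.05, two-sided). TMM was computed without weights, trimming 30% and 5%. Log2FC on this scale understate changes of low genes. The standard error was 0.383 at the median of the members. Each gene had 1 estimate of spread for all 8 groups, so standard errors and adjusted p do not measure the spread within a single line.

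Values in every library are given for HIF1A, EPAS1, VEGFA, CA9, SLC2A1, HK2, LDHA, LDHB, and PDK1, for members called or with an unadjusted p under 0.01 between variants, and in “Vec” for the member of each role with the widest range. GAPDH, PGAM1, BNIP3, PGK1, P4HA2, and the other members given by single values were named after their values were seen. Alternatives were other pseudocounts, filters, and scalings, a replicate block, a model per line, limma-voom, edgeR 4.0.16, and DESeq2 1.42.0 on the recovered tags, leaving out each library, and, chosen after seeing the data, a correction for GC content and gene length. Scripts were tested on simulated data. The result for 1 pathway gene called in a line is not reported here. Promoters came from RefSeq (GRCh38.p14). R 4.3.3 and Python 3.11.15 were used.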

Additional observations from a re-analysis of the deposited data

How the results depend on the processing

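Of 330 values recomputed under 12 alternatives with all libraries, 298 stayed close to the reported value, and of 720 values with 1 library left out, 676 did. For a tested value this means the same direction and side of the threshold, for a count within 1.5 times, and for a median a move of less than 1 SD between replicates, which can cross 0. The count of members called between variants was most affected. In U87MG it was 0, and became 1 with a pseudocount of 0.1, 1 with edgeR, 1 with DESeq2, and 2 with GC and length correction, and ran from 0 to 1 with libraries left out. In T98G it was 1, and became 0 without a filter, with a separate model per line, with edgeR, and with the replicate block, and ran from 0 to 1. In U251MG it was 0, and became 1 with GC and length correction and 3 with DESeq2, and ran from 0 to 4, the highest without “WWOX” replicate 2 of U251MG. For the mean of the 4 lines it was 0, and became 1 with GC and length correction and 2 with DESeq2, and ran from 0 to 4, again highest without that library. For differences among lines it was 0, and became 1 with GC and length correction and 2 with DESeq2, and ran from 0 to 1. The cause of these changes was not tested. Among “Vec” groups, the count for T98G and U251MG ran from 11, without “Vec” replicate 1 of T98G, to 19. The median log2FC of the members in T98G ran from −0.0904 to 0.0761. The median log2FC of the members in DBTRG-05MG was 0.125 and ran from −0.192 to 0.429.

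The WWOX log2FC in U251MG was −0.01, and 0.00659 on the CPM as deposited, 0.00040 with limma-voom, 0.0666 with edgeR, and 0.0768 with DESeq2. It ran from −0.30 without “WWOX” replicate 1 to 0.23 without “WWOX” replicate 2, with 0.02 without “Vec” replicate 2 and 0.01 without “WWOX” replicate 3. Its sign is therefore not determined by these libraries.

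Groups share replicate numbers, but same-numbered “Vec” and “WWOX” libraries correlated in their deviations with r from −0.55 to 0.51, and not every pair was positive in any line, so the numbers were taken as names only. With the number as a replicate block, 0 members passed in T98G, and 0 in each of the other comparisons between variants. “Vec” comparisons between lines could not be fitted with it.

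A value of 3 tags in the shallowest library is 0.279 CPM, so CA9 in T98G, ALDOC in T98G and U251MG, and EGLN3 in “Vec” of U87MG are limited by depth.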
